A study of Mus musculus with 9 samples.

Results

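The genes described here are 8 members of the TALE homeobox family that encode Hox cofactors: Meis1, Meis2, Meis3, Pbx2, Pbx3, Pbx4, Pknox1 and Pknox2. They were taken by name, with every probe set that carried a member's symbol alone. This gave 20 of the 45101 probe sets and 8 of the 18194 genes that had a probe set of their own. Meis2 had 4 probe sets, Meis1, Pbx2 and Pknox1 had 3 each, Pbx3, Pbx4 and Pknox2 had 2 each, and Meis3 had 1. Total RNA was hybridised to 9 Affymetrix mouse arrays, and each of the 3 groups had 3 of them. All cells came from 1 mouse ES line, Ainv15, in which Cdx2 with a V5 tag could be induced by doxycycline, so every group carried this construct. The first group, called iCdx2 and FGF cultures, was collected at day 5 after +RA +Hh +Dox +FGF treatment. Its embryoid bodies were given 1 µM retinoic acid and 0.5 µM hedgehog agonist on day 2, and 2 µg/ml doxycycline (6 to 8 hours) and 100 ng/ml bFGF on day 3. The second group, called motor neuron cultures, was collected at day 5 after +RA +Hh treatment alone. The third group was the ES cells at day 0, untreated and grown on mitomycin-C treated fibroblasts. The growth protocol also gives smaller doses of both patterning agents with the FGF and does not say which cultures had them. Doxycycline, induced Cdx2 and FGF came together in the same cultures, so their parts cannot be told apart. The series asks how Cdx2 and signals set the rostrocaudal identity of motor neuron progenitors.

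TALE homeodomain proteins carry an extended loop in their homeodomain and act largely as partners of other transcription factors. Pbx proteins bind DNA together with Hox proteins and sharpen their choice of site. Meis and Pknox proteins pair with Pbx, which favours its place in the nucleus and lets the complex reach DNA. In the hindbrain and spinal cord these complexes are known for their part in segment identity, in Hox autoregulation and in motor neuron subtype choice. Meis genes are also known to be induced by retinoic acid.

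The promoter windows of the 3 Meis genes are shown because these genes rose together in day 5 cultures. The sequences are from RefSeq on GRCm38.p6 and run from 250 bases before the start of the gene to 50 after it, 5′ to 3′ on the strand of the gene. The table held 5 of the 8 members, and Pbx3, Pknox1 and Pknox2 are not shown. The Meis1 window lies at chr11:19018920-19019219 on the minus strand, the Meis2 window at chr2:116064570-116064869 on the minus strand, and the Meis3 window at chr7:16175145-16175444 on the plus strand. Capitals mark a match to a Cdx motif, spelled TTTATNG and searched on both strands.
Meis1: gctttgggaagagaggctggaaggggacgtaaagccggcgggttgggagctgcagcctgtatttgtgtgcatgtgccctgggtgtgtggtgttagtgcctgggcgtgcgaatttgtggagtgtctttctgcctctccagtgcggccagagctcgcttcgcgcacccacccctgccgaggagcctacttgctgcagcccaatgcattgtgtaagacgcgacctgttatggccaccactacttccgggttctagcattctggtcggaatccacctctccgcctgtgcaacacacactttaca
Meis2: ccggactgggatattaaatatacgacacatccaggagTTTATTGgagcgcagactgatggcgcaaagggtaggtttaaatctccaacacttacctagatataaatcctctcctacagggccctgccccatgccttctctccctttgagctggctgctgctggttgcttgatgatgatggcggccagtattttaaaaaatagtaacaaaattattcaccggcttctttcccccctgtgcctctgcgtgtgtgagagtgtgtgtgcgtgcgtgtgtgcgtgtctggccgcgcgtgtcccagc
Meis3: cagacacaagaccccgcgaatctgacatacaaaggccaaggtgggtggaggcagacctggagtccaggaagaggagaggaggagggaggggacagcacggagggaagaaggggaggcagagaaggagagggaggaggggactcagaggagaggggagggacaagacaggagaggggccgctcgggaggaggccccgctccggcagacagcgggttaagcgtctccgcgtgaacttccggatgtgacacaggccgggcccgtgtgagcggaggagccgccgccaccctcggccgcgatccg
The Cdx letters were found in the Meis2 window, where the match began at position -213 from the start of the gene, and 10.9% of 32851 promoter windows of this length held them. The Pbx4 window held the same letters at position -33. The Meis and Pknox core TGACAG, the Pbx and Hox composite TGATNNAT and the retinoid receptor core AGGTCA were also searched on both strands. These letters are in 19.2%, 8.85% and 16.3% of all windows and in none of the 5 member windows. A GC box, GGGCGG, was present in 35.7% of windows and among the members in Pbx2, with matches that began at positions -142 and -83. No match overlapped another. GC content was 58.3% in the Meis1 window, 51.0% in the Meis2 window and 66.7% in the Meis3 window, beside a median of 52.7% over all windows. A match is a stretch of letters and not a measured site.

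Values are log2 expression levels per probe set, and a difference of 1 is a doubling. On probe set 1422074_at Cdx2 was 8.27, 8.99 and 8.59 in the iCdx2 and FGF cultures, 2.17, 2.17 and 2.24 in motor neuron cultures and 2.17 on each ES array. On 1422075_at it was 6.39, 7.11 and 6.6 in the iCdx2 and FGF cultures, 2.63 on each motor neuron array, and 2.7, 2.63 and 4.56 on the ES arrays. Pluripotency markers averaged 2.26 to 2.29 in iCdx2 and FGF cultures, 2.25 to 2.29 in motor neuron cultures and 12.45 to 12.9 in ES cells. Of the motor neuron markers, Chat, the acetylcholine synthesis enzyme, lay at 2.17 in all 3 groups, while Isl1 averaged 9.77 in iCdx2 and FGF cultures, 12.5 in motor neuron cultures and 4.81 in ES cells. The ES arrays stood apart in the control probe sets of 18S ribosomal RNA, Actb and Tfrc. The 18S ribosomal RNA level was 15.32 to 15.42 in iCdx2 and FGF cultures, 15.45 to 15.51 in motor neuron cultures and 5.86 to 6.6 in ES cells. The Actb 3′ minus 5′ level was -0.1 to -0.01 in iCdx2 and FGF cultures, -0.05 to -0.03 in motor neuron cultures and 1.87 to 2.3 in ES cells. For Tfrc it was -1.74 to -1.43 in iCdx2 and FGF cultures, -1.57 to -1.39 in motor neuron cultures and 5.59 to 6.86 in ES cells. For Gapdh it was 0.51 to 0.54, 0.59 to 0.65 and 0.63 to 1.05 in the same order, so motor neuron and ES arrays overlapped. The median within-group SD was 0.121 in iCdx2 and FGF cultures, 0.156 in motor neuron cultures and 0.402 in ES cells. The ES cells were also grown on fibroblasts, and fibroblast markers averaged 5.14 to 6.6 on the ES arrays. They averaged 5.56 to 5.7 in iCdx2 and FGF cultures and 3.24 to 3.43 in motor neuron cultures. Array quality, stage and RNA from those fibroblasts therefore cannot be told apart in a comparison with ES cells. The labels do not say whether the arrays of a group came from separate cultures. The p-values here therefore cover the spread from array to array alone, and that spread may be technical.

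A probe set was tested where it lay over 4 on at least 3 arrays, and 19 of the 20 member probe sets were, among 21557 in all. Differences were fitted with limma, and adjusted p-values are its Benjamini-Hochberg values over all probe sets tested. A probe set was called at an adjusted p under 0.05 and a log2 difference of at least 1 in size. Intervals are at 95%.

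**Figure D1:**
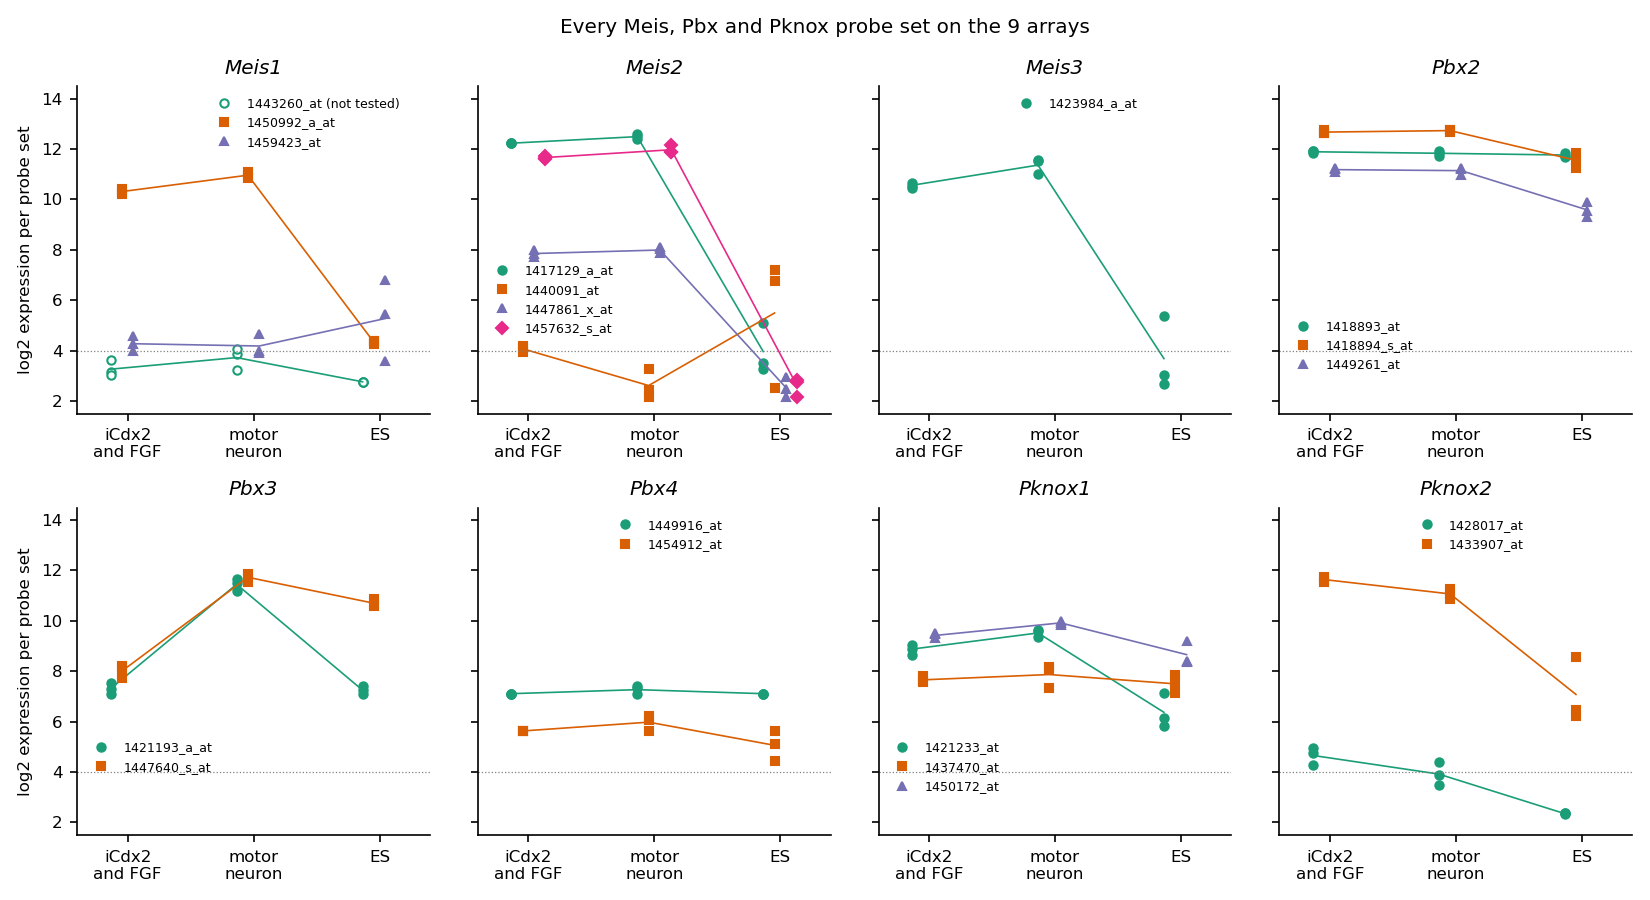
Log2 expression of all 20 probe sets of the 8 genes on the 9 arrays, 1 panel per gene, with iCdx2 and FGF, motor neuron and ES arrays from left to right. Points are arrays, lines join group means and the dotted line marks 4; both Pbx3 probe sets peak in motor neuron cultures, while the main Meis probe sets are high in both day 5 groups and low in ES cells.

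Pbx3 fell with iCdx2 and FGF, and was the only one of the 8 genes called in that comparison, apart from 1 dim Meis2 probe set that was called under 3 alternatives. Pbx3 is a Hox-binding partner known in mouse for its role in hindbrain circuits that control breathing. Both of its probe sets were called. Probe set 1421193_a_at read 7.31, 7.54 and 7.09 in iCdx2 and FGF cultures, 11.66, 11.52 and 11.18 in motor neuron cultures, with 7.26, 7.09 and 7.41 in ES cells. On this probe set the iCdx2 and FGF arrays and the ES arrays overlapped, and the motor neuron arrays all stood above both. The lowest level, 7.09, was 1 value shared by iCdx2 and FGF replicate 3 and ES replicate 2, so a fold against the iCdx2 and FGF arrays may be a lower bound. Probe set 1447640_s_at read 7.74, 8.11 and 8.19 in iCdx2 and FGF cultures, 11.88, 11.74 and 11.56 in motor neuron cultures, with 10.88, 10.59 and 10.65 in ES cells. On this one the 3 groups did not overlap, and the iCdx2 and FGF arrays were the lowest.

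Probe set 1421193_a_at averaged 7.31 ± 0.22 in iCdx2 and FGF cultures, against 11.45 ± 0.25 in motor neuron cultures (SD, n = 3 each), a log2 difference of -4.14 (SE 0.21, interval -4.61 to -3.67, limma adjusted p = 1.21e-06), or 17.6-fold lower. The other probe set averaged 8.01 ± 0.24, against 11.73 ± 0.16 in motor neuron cultures (SD, n = 3 each), a difference of -3.72 (SE 0.17, interval -4.1 to -3.33, limma adjusted p = 7.29e-07), or 13.1-fold lower. Both probe sets of the gene thus gave a fall of the same order. Over the processing alternatives the difference ran from -4.4 to -4.03 for the first and from -3.93 to -3.58 for the second, and both were called in every alternative that tested them.

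Against ES cells the 2 Pbx3 probe sets differed from each other. In motor neuron cultures 1421193_a_at was 18.4-fold higher than in ES cells (log2 difference 4.2, SE 0.21, limma adjusted p = 1.41e-07). Probe set 1447640_s_at was 2.03-fold higher (difference 1.02, SE 0.17, limma adjusted p = 0.000463), and its call ended in 4 alternatives, where the difference was 0.95 to 1, including those without motor neuron replicate 1, ES replicate 2 or ES replicate 3. In iCdx2 and FGF cultures 1421193_a_at differed from ES cells by 0.06 (interval -0.41 to 0.54, limma adjusted p = 0.808), with both groups at or near the shared lowest value, and 1447640_s_at was 6.46-fold lower (difference -2.69, SE 0.17, limma adjusted p = 8.24e-07). The order of iCdx2 and FGF cultures against ES cells thus rests on the probe set, while the order of the day 5 groups does not.

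Pbx2, a broadly expressed Hox-binding partner, was high in all 3 groups. Probe set 1418894_s_at read 12.65, 12.63 and 12.74 in iCdx2 and FGF cultures, 12.75, 12.66 and 12.77 in motor neuron cultures, with 11.57, 11.86 and 11.23 in ES cells. The day 5 groups overlapped, and the ES arrays lay below both. Its 3 probe sets differed between iCdx2 and FGF cultures and motor neuron cultures by 0.05 (interval -0.16 to 0.27), -0.06 (interval -0.38 to 0.27) and 0.04 (interval -0.35 to 0.43), and no interval reached beyond 0.43 in size. In motor neuron cultures 1418894_s_at was 2.26-fold higher than in ES cells (limma adjusted p = 5.95e-05) and 1449261_at 2.94-fold higher (limma adjusted p = 2.83e-05). The same probe sets were 2.17-fold and 3.03-fold higher in iCdx2 and FGF cultures than in ES cells, and 1418894_s_at missed the size threshold, at 0.96, without ES replicate 3. The third, 1418893_at, differed by 0.08 (interval -0.14 to 0.29) between motor neuron cultures and ES cells.

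Pbx4, whose product is known chiefly from testis in mouse and from hindbrain patterning in zebrafish, was not called in any of the 3 comparisons. Probe set 1449916_at read 7.11 on all 3 iCdx2 and FGF arrays, 7.08, 7.33 and 7.41 in motor neuron cultures and 7.11 on all 3 ES arrays. These 6 arrays held 1 value when rounded to more decimals than are shown here. By the same rounding 3.51% of the tested probe sets held 1 value on 6 or more arrays. Probe set 1454912_at read 5.63, 5.63 and 5.64 in iCdx2 and FGF cultures, 6.07, 5.63 and 6.23 in motor neuron cultures, with 5.63, 4.45 and 5.1 in ES cells. The groups overlapped on both probe sets. The second differed by 0.92 between motor neuron cultures and ES cells (limma adjusted p = 0.0251), under the size threshold, and passed it, at 1.34, after each array was centred on its median, at 1.09, without motor neuron replicate 2 and, at 1.2, without ES replicate 1. In iCdx2 and FGF cultures against ES cells it was called higher, at 1, after the same centring.

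The 3 Meis genes rose in both day 5 groups relative to ES cells, on 5 of their 7 tested probe sets, and no probe set of theirs was called between the day 5 groups. Meis1, a partner of Pbx and Hox proteins known in limb, blood and neural development, read 10.31, 10.2 and 10.42 in iCdx2 and FGF cultures on 1450992_a_at, 11.1, 10.84 and 10.95 in motor neuron cultures, with 4.38, 4.38 and 4.24 in ES cells. The 3 groups did not overlap. It was 99.1-fold higher in motor neuron cultures than in ES cells (log2 difference 6.63, SE 0.17, limma adjusted p = 4.45e-09) and 62.8-fold higher in iCdx2 and FGF cultures than in ES cells (5.97, SE 0.17, limma adjusted p = 9.14e-09). The ES arrays lay near 4, and 4.38 was 1 value shared by 2 of them, so both folds may be lower bounds. Between iCdx2 and FGF cultures and motor neuron cultures it differed by -0.66 (SE 0.17, interval -1.05 to -0.27), with a limma adjusted p of 0.0187 and a size under the threshold. The other Meis1 probe sets were dim: 1459423_at averaged 4.27 in iCdx2 and FGF cultures, 4.18 in motor neuron cultures and 5.27 in ES cells, where its arrays read 6.78, 3.58 and 5.45. Without ES replicate 2 it was called lower against ES cells, with log2 differences of -1.94 in motor neuron cultures and -1.84 in iCdx2 and FGF cultures. The remaining 1443260_at, which was not tested, lay between 2.76 and 4.05.

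Meis2, a partner of Pbx in brain, eye and neural crest development, showed the same order of group means on 3 of its 4 probe sets. On 1417129_a_at it read 12.23, 12.25 and 12.22 in iCdx2 and FGF cultures, 12.58, 12.5 and 12.39 in motor neuron cultures, with 3.28, 3.52 and 5.09 in ES cells. On 1457632_s_at it read 11.64, 11.61 and 11.73 in iCdx2 and FGF cultures, 12.14, 11.88 and 11.88 in motor neuron cultures, with 2.17, 2.84 and 2.75 in ES cells. The ES arrays were far below both day 5 groups, and on both probe sets each iCdx2 and FGF array was below each motor neuron array. On 1447861_x_at the day 5 groups overlapped. Where arrays of the dimmer group lay under 4, that group's values under 4 were raised to 4 and the fold is a lower bound. In motor neuron cultures 1417129_a_at was at least 279-fold higher than in ES cells (limma adjusted p = 9.97e-08), 1457632_s_at at least 250-fold (limma adjusted p = 2.89e-09) and 1447861_x_at at least 15.9-fold (limma adjusted p = 8.48e-08). The same probe sets in iCdx2 and FGF cultures exceeded ES cells by at least 234-fold, 202-fold and 14.4-fold. Between iCdx2 and FGF cultures and motor neuron cultures they differed by -0.26 (interval -1.17 to 0.65), -0.31 (interval -0.79 to 0.18) and -0.14 (interval -0.71 to 0.43). The interval of 1417129_a_at carries the ES spread: its SD was 0.02 in iCdx2 and FGF cultures, 0.1 in motor neuron cultures and 0.98 in ES cells. Its limma adjusted p fell as low as 0.0128 over the alternatives, with a difference of -0.31 to -0.21 that was never called.

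The remaining Meis2 probe set, 1440091_at, ran the other way. It read 4.18, 4.09 and 3.93 in iCdx2 and FGF cultures, 2.17, 3.26 and 2.42 in motor neuron cultures, with 6.77, 2.5 and 7.2 in ES cells. ES replicate 2 lay with the motor neuron arrays, so those groups overlapped. It was called at least 2.81-fold lower in motor neuron cultures than in ES cells (log2 difference -2.88, SE 1.04, limma adjusted p = 0.0308), and the call ended in 6 of 19 settings: without a filter, with only the 6 arrays compared, and without motor neuron replicate 1 or 3 or ES replicate 1 or 3. Between iCdx2 and FGF cultures and motor neuron cultures its difference was 1.45 (SE 1.04, limma adjusted p = 0.354), and 0.09 once values under 4 were raised. It was called higher there with array weights, at 1.25, and, at 1.45, with only the 6 arrays compared and without ES replicate 2.

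Meis3, a Pbx partner known in Xenopus for promoting hindbrain fates, read 10.66, 10.55 and 10.47 in iCdx2 and FGF cultures, 11.58, 11.52 and 11 in motor neuron cultures, with 5.37, 3.01 and 2.66 in ES cells. The 3 groups did not overlap, and ES replicate 1 stood above the other ES arrays. Meis3 was at least 120-fold higher in motor neuron cultures than in ES cells (log2 difference 7.68, SE 0.6, limma adjusted p = 2.83e-06) and at least 68.6-fold higher in iCdx2 and FGF cultures than in ES cells (6.87, SE 0.6, limma adjusted p = 6.87e-06). Its difference between iCdx2 and FGF cultures and motor neuron cultures was -0.8 (interval -2.17 to 0.56, limma adjusted p = 0.379). That interval carries the ES spread: the SD was 0.09 in iCdx2 and FGF cultures, 0.32 in motor neuron cultures and 1.47 in ES cells. Over the alternatives the limma adjusted p ran from 0.0124 to 0.728, and this difference was never called.

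Pknox1 and Pknox2 encode Pbx partners closely related to Meis; Pknox1 is broadly expressed and needed early in mouse development. On 1421233_at, Pknox1 read 8.9, 8.66 and 9.06 in iCdx2 and FGF cultures, 9.58, 9.37 and 9.63 in motor neuron cultures, with 6.15, 7.15 and 5.81 in ES cells. The 3 groups did not overlap. It was 8.91-fold higher in motor neuron cultures than in ES cells (log2 difference 3.16, SE 0.33, limma adjusted p = 1.86e-05) and 5.68-fold higher in iCdx2 and FGF cultures than in ES cells (2.51, limma adjusted p = 0.000101). On 1450172_at it was 2.39-fold higher in motor neuron cultures than in ES cells (limma adjusted p = 0.000866), and in iCdx2 and FGF cultures the difference from ES cells was 0.77 (limma adjusted p = 0.0147), under the size threshold but over it, at 1.2, after median centring and, at 1.04, without ES replicate 2. The third probe set, 1437470_at, differed by 0.37 between motor neuron cultures and ES cells (interval -0.27 to 1.01). Between iCdx2 and FGF cultures and motor neuron cultures the Pknox1 differences were -0.65 (interval -1.39 to 0.09), -0.49 (interval -1.02 to 0.03) and -0.21 (interval -0.85 to 0.43).

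On 1433907_at, Pknox2 read 11.61, 11.56 and 11.75 in iCdx2 and FGF cultures, 10.87, 11.26 and 11.08 in motor neuron cultures, with 8.57, 6.21 and 6.46 in ES cells. Each iCdx2 and FGF array was above each motor neuron array, and ES replicate 1 stood above the other ES arrays. Pknox2 was 15.9-fold higher in motor neuron cultures than in ES cells (log2 difference 3.99, SE 0.52, limma adjusted p = 8.87e-05) and 23.6-fold higher in iCdx2 and FGF cultures than in ES cells (4.56, SE 0.52, limma adjusted p = 4.08e-05). Its difference between iCdx2 and FGF cultures and motor neuron cultures was 0.57 (interval -0.6 to 1.75, limma adjusted p = 0.483). Here too the interval carries the ES spread, with an SD of 0.1 in iCdx2 and FGF cultures, 0.2 in motor neuron cultures and 1.29 in ES cells. Over the alternatives the limma adjusted p ran from 0.0101 to 0.89, and this difference was never called. Probe set 1428017_at, at 4.94, 4.76 and 4.27 in iCdx2 and FGF cultures, 3.48, 4.39 and 3.88 in motor neuron cultures, with 2.36, 2.36 and 2.34 in ES cells, was called higher against ES cells in both day 5 groups. With values under 4 raised those differences were 0.13 in motor neuron cultures and 0.66 in iCdx2 and FGF cultures, and neither was called.

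**Figure D2:**
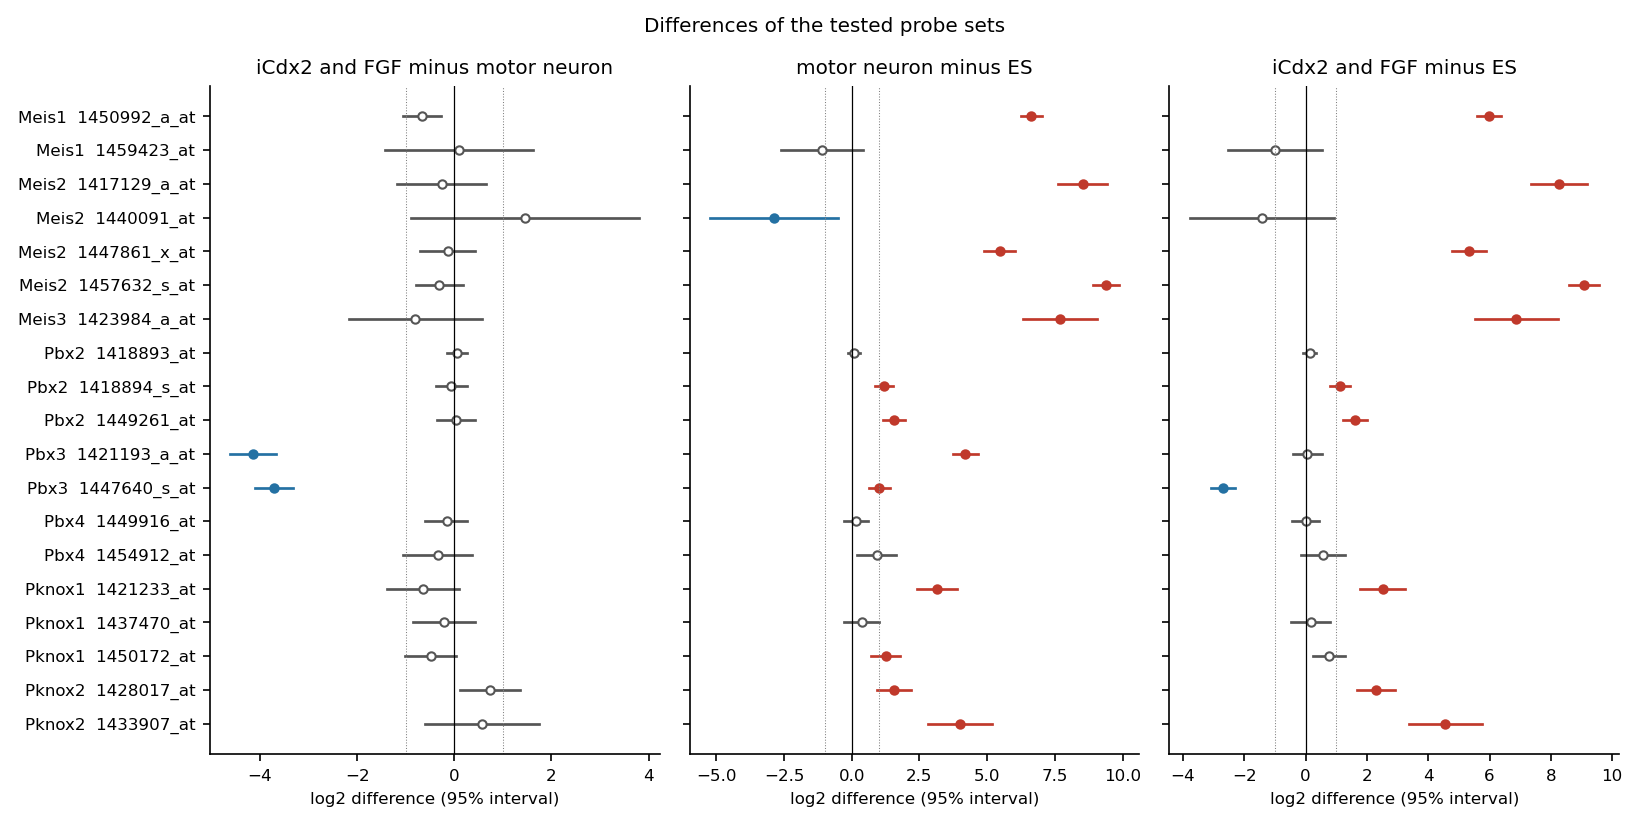
Log2 difference of each tested probe set of the 8 genes with its 95% interval, for iCdx2 and FGF minus motor neuron, motor neuron minus ES and iCdx2 and FGF minus ES cultures. Red points were called higher, blue points lower and open points were not called; in the first panel only the Pbx3 probe sets, at -4.14 and -3.72, lie beyond the dotted lines at -1 and 1 and are called.

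Of the 19 tested member probe sets, 0 were called higher in iCdx2 and FGF cultures than in motor neuron cultures by limma, beside 10.9% of all tested probe sets, and 1, of Pknox2, was higher at an unadjusted p under 0.05. The 2 called lower, both of Pbx3, stand beside 8.55% of all. The median member difference was -0.21, against 0.04 over all probe sets, and 13 of 19 differences were negative. The day 5 groups did not overlap on 10 of the 19 probe sets, beside 60.9% of all tested probe sets. The share of members called lower was thus close to that of all probe sets, and both calls belonged to Pbx3.

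Between motor neuron cultures and ES cells 13 of 19 were called higher, in 7 of the 8 genes, beside 31.9% of all tested probe sets, and 1 was called lower beside 28% of all. The median was 1.56, against 0.1 over all probe sets, and the groups did not overlap on 13, beside 75.2% of all. Between iCdx2 and FGF cultures and ES cells 10 were called higher, in 6 genes, beside 31.4% of all, and 1 was called lower beside 24.7%. Here the median was 1.12, against 0.14 over all probe sets, and the groups did not overlap on 12, beside 74.2% of all. Centring each array on its median moved the median over all probe sets to 0.53 in motor neuron cultures against ES cells and to 0.58 in iCdx2 and FGF cultures against ES cells. The share of calls that were higher was then 64.3%, against 53.3% as deposited, in the first comparison, and 68.3%, against 56%, in the second.

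**Figure D3:**
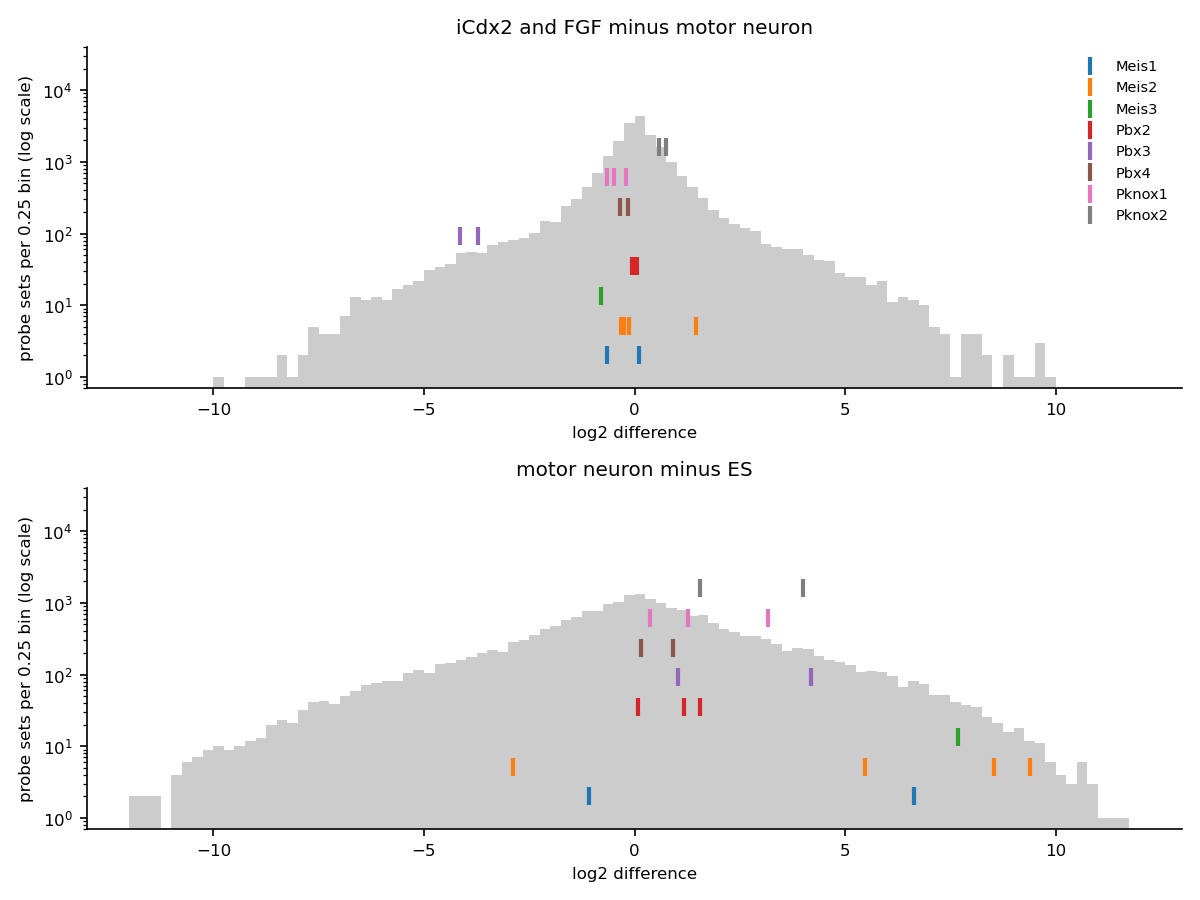
Histogram of the log2 differences of all 21557 tested probe sets in bins of 0.25, counts on a log axis, for iCdx2 and FGF minus motor neuron cultures above and motor neuron minus ES cultures below. Coloured ticks mark the member probe sets, 1 height per gene with no meaning for the axis; the Pbx3 ticks lie near -4 above, and the Meis ticks spread to both sides of 0 below.

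The differences of a gene's probe sets lay closer together between the day 5 groups than against ES cells. Over the 7 genes with several tested probe sets, the span between a gene's lowest and highest difference was taken with values under 4 raised to 4, since differences between lower values have no order. The median span was 0.4 in iCdx2 and FGF minus motor neuron cultures, with a range of 0.04 for Pknox2 to 0.72 for Meis1. It was 3.18 in motor neuron cultures minus ES cells and 2.75 in iCdx2 and FGF cultures minus ES cells. Meis2 had the widest span in both, through 1440091_at, and its size is not given because ES arrays lay under 4 on its other probe sets. A span can widen with the size of the differences, which ran larger against ES cells, so it does not measure agreement between probe sets. The Actb 3′ minus 5′ level was -0.1 to -0.01 on day 5 arrays and 1.87 to 2.3 on ES arrays. The Tfrc level was -1.74 to -1.39 on day 5 arrays and 5.59 to 6.86 on ES arrays. For Gapdh it was 0.51 to 0.65 on day 5 arrays and 0.63 to 1.05 on ES arrays. The part of these levels in the spans was not tested.

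Other genes of the pathway were read at the probe set of highest mean, among 10912 genes tested. A list of the other TALE genes and Pbxip1 held 11 genes, of which 8 were tested. Pbxip1 is not itself a TALE gene. The counts below include it, and it was called higher in all 3 comparisons. In iCdx2 and FGF cultures against motor neuron cultures 2 were called higher, beside 11.1% of all genes, and 1 lower, beside 8.53%, with a median of 0.2. Irx5, an Iroquois patterning factor, read 5.13, 4.56 and 4.7 in iCdx2 and FGF cultures and 9.19, 8.2 and 8.39 in motor neuron cultures, and was 13.9-fold lower (log2 difference -3.8, SE 0.31, limma adjusted p = 2.44e-05). Its groups did not overlap. Pbxip1, which encodes a protein that binds Pbx, was 3.3-fold higher (limma adjusted p = 0.0164), and Tgif1, a repressor in TGF-beta and retinoid signalling, 2.28-fold higher (limma adjusted p = 0.0132). Neither Pbxip1 nor Tgif1 was called without a filter, nor without iCdx2 and FGF replicate 1 or motor neuron replicate 1, and the count of higher genes was 1 without iCdx2 and FGF replicate 2 or 3 or motor neuron replicate 2. The count of lower genes was 2 without ES replicate 1 or 2. Irx3 differed by -1.4 (limma adjusted p = 0.051). Against ES cells, motor neuron cultures had 5 of the 8 called higher, beside 25.9% of all genes, and 2 lower, beside 30.7%. Irx1, Irx3 and Irx5 were among the higher ones, and Mkx, a tendon regulator, was at least 29.7-fold lower. In iCdx2 and FGF cultures against ES cells 5 were higher, beside 25.4% of all genes, and 1 lower, beside 27.2%. The lower counts against ES cells were the same without any 1 of the ES replicates where the same probe sets stayed tested. Leaving out iCdx2 and FGF replicate 1 gave 2 lower in iCdx2 and FGF cultures against ES cells.

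Among the Hox genes, the partners of these cofactors, 22 of 39 listed were tested. Against motor neuron cultures, 7 were called higher and 11 lower in iCdx2 and FGF cultures, with a median of -1.83, beside 0.04 over all genes. These counts stand beside 11.1% of all genes called higher and 8.53% called lower. The higher ones included Hoxc8, at least 202-fold, Hoxa9, at least 143-fold, Hoxb9, at least 106-fold, and Hoxc9, at least 71.9-fold. The count of higher Hox genes was 7 without any 1 of the 9 arrays where the same probe sets stayed tested. With the filter applied again to 8 arrays, genes over 4 on the iCdx2 and FGF arrays alone were no longer tested without 1 of these, and 3 of 18 were called higher. Against ES cells, motor neuron cultures had 13 Hox genes higher, beside 25.9% of all genes, and 4 lower, beside 30.7%. The iCdx2 and FGF cultures had 18 higher than in ES cells, beside 25.4% of all genes, and 2 lower, beside 27.2%. With the same probe sets tested, these counts were the same without any 1 of the arrays. The 2 lower in iCdx2 and FGF cultures became 1 after quantile normalization, median centring or raising values under 4 to 4, and with a filter at 6, which tested 19 Hox genes, 0 were called lower there and 2 in motor neuron cultures. Pbx3 and these Hox genes were measured on the same arrays, and no relation between them was tested.

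Genes described as targets of Pbx with Meis or Pknox in neural tube and lens were also listed, of which 6 of 9 were tested. In iCdx2 and FGF cultures 1 was called higher and 4 lower than in motor neuron cultures, with a median of -2.51. Of all genes, 11.1% were called higher and 8.53% lower. Hoxb4 was 13.2-fold lower (log2 difference -3.72, limma adjusted p = 4.68e-06), Hoxa3 6.18-fold lower (limma adjusted p = 2.12e-05) and Hoxa2 5.22-fold lower (limma adjusted p = 0.000199). Aldh1a2, which makes retinoic acid, was at least 7.19-fold higher (limma adjusted p = 0.00029). Against ES cells 5 of the 6 were higher and 0 lower by limma in motor neuron cultures, and likewise in iCdx2 and FGF cultures. Of all genes, 25.9% and 25.4% were higher in these comparisons, and 30.7% and 27.2% lower. Most of this list is made of Hox genes, so its counts are not separate from those above.

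Retinoic acid responsive genes, 10 of 13 listed, had 3 called higher and 3 lower in iCdx2 and FGF cultures against motor neuron cultures, with a median of -0.21. Of all genes, 11.1% were called higher and 8.53% lower. Cyp26b1, which breaks down retinoic acid, was at least 172-fold lower (limma adjusted p = 7.04e-08), while Cyp26a1, of the same enzyme family, was 6.63-fold higher (limma adjusted p = 0.0413) and Stra6, a retinol transporter, 5.19-fold higher (limma adjusted p = 0.00106). With the same probe sets tested, 2 were called higher and 2 lower without any 1 of the iCdx2 and FGF or motor neuron replicates. The count of higher genes was also 2 after quantile normalization, without a filter, with a filter at 6, without an intensity trend and without ES replicate 1, again with the same probe sets. Against ES cells 8 of 10 were higher in motor neuron cultures, beside 25.9% of all genes, with a median of 3.83. In iCdx2 and FGF cultures 8 of 10 were higher than in ES cells, beside 25.4%, with a median of 3.93. Rara and Rarb, which encode retinoic acid receptors, and Crabp2, which encodes a retinoic acid carrier, were among the higher ones in motor neuron cultures, as were all 3 Meis genes at their probe set of highest mean.

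The genes nearest to each member in pattern were found over the 9 arrays among 10912 genes, by the root mean square difference of log2 values after each gene's own mean was removed. Nearest to Pbx3 were Dpysl3, at 0.21, and Stmn2, at 0.308, which encode proteins of the neuronal cytoskeleton. Dpysl3 averaged 9.41 ± 0.21 in iCdx2 and FGF cultures, 13.09 ± 0.08 in motor neuron cultures and 12.27 ± 0.05 in ES cells (SD, n = 3 each). Stmn2 averaged 9.77 ± 0.06 in iCdx2 and FGF cultures, 13.88 ± 0.26 in motor neuron cultures and 13.07 ± 0.31 in ES cells (SD, n = 3 each). Both stood lowest in the iCdx2 and FGF cultures, as did 1447640_s_at, the Pbx3 probe set used here. Nearest to Meis1 were Ccnjl, at 0.224, and Rgma, at 0.283; to Meis2, Smo, at 0.335, the hedgehog signal transducer; and to Meis3, Srgap3, at 0.281. Pbx2 was nearest to Cox7a2l, at 0.087, Pknox1 to Htatsf1, at 0.142, Pknox2 to Cmtm8, at 0.197, and Pbx4 to Cog1, at 0.014. Pbx4 and Cog1 were nearly flat: on every iCdx2 and FGF and ES array Pbx4 lay at 7.11 and Cog1 at 9.55 or 9.56. The second places were held by Rfx4 for Meis2, Ajap1 for Meis3, Ccny for Pbx2, Fuca1 for Pknox1, Hspa4l for Pknox2 and Nkx6-2 for Pbx4.

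Like Pbx3, the neuron, motor neuron and neural progenitor lists were lower in iCdx2 and FGF than in motor neuron cultures. The smooth muscle, mesoderm and fibroblast lists were higher there. The neuron list was lowest in ES cells, where Pbx3 1447640_s_at averaged 10.7, against 8.01 in iCdx2 and FGF cultures. In cultures of mixed cells fewer cells of a type and less RNA per cell cannot be told apart. Over all genes 11.1% were called higher and 8.53% lower between the day 5 groups. The neuron list averaged 8.91 to 9.33 in iCdx2 and FGF cultures, 12.75 to 13.27 in motor neuron cultures and 7.24 to 8.19 in ES cells, and 7 of its 8 genes, among them Stmn2, were called lower in iCdx2 and FGF cultures than in motor neuron cultures. The motor neuron list averaged 6.65 to 6.72 in iCdx2 and FGF cultures, 8.89 to 9.57 in motor neuron cultures and 3.4 to 3.54 in ES cells, and 4 of its 6 tested genes were called lower in iCdx2 and FGF cultures. Neither list overlapped between the day 5 groups. The smooth muscle list averaged 10.13 to 10.19 in iCdx2 and FGF cultures, 3.01 to 5.04 in motor neuron cultures and 6.94 to 9.01 in ES cells, with 5 of 5 tested genes called higher in iCdx2 and FGF cultures than in motor neuron cultures. The mesoderm list averaged 6.09 to 6.26 in iCdx2 and FGF cultures, 2.98 to 3.11 in motor neuron cultures and 4.26 to 6.05 in ES cells, with 5 of 6 called higher. The fibroblast list averaged 5.56 to 5.7 in iCdx2 and FGF cultures, 3.24 to 3.43 in motor neuron cultures and 5.14 to 6.6 in ES cells, with 5 of 8 tested genes called higher. Of its 12 genes, Lum and Fap lay at 2.17 in every group, and Thy1, Postn and Dcn at 2.17 in both day 5 groups. Col1a1 averaged 7.1 in iCdx2 and FGF cultures, 2.17 in motor neuron cultures and 11.09 in ES cells. Fbln1 averaged 12.39 in iCdx2 and FGF cultures, 10.51 in motor neuron cultures and 8.72 in ES cells. The neural progenitor list averaged 10.17 to 10.39 in iCdx2 and FGF cultures, 11.65 to 11.8 in motor neuron cultures and 7.28 to 8.66 in ES cells, with 2 of 8 called lower. The part of these cell types in the Pbx3 difference was not tested.

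**Figure D4:**
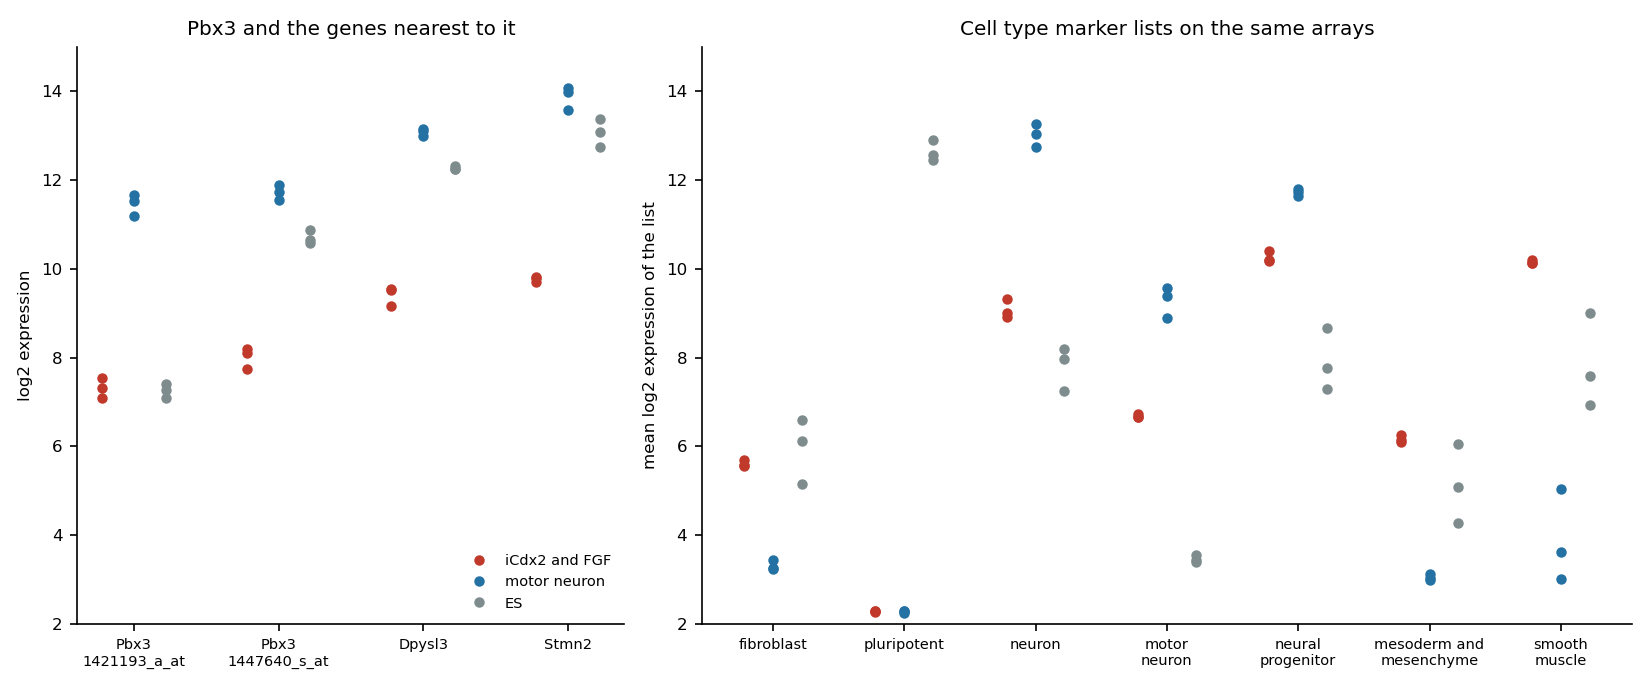
Left, log2 expression of both Pbx3 probe sets and of Dpysl3 and Stmn2 on each array; right, the mean log2 expression of each cell type marker list on each array. Points are arrays, red for iCdx2 and FGF, blue for motor neuron and grey for ES; the Pbx3 points and the neuron list are lower on all iCdx2 and FGF arrays than on all motor neuron arrays.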

How the data were processed

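Expression was measured on 9 Affymetrix mouse arrays, 3 in each of 3 groups taken from the labels. A NuGen Ovation kit amplified and labelled the RNA, per the labels' protocols. The submitters' processing notes list GCRMA and limma and give no versions. The authors deposited log2 values for each probe set, already normalized; that they are log2 was judged from their range, 2.165 to 16.12. No further normalization was applied. The number of arrays limits the precision. Of 45101 probe sets, 34958 named 1 gene, 932 several and 9211 none; names came from the platform annotation.

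Probe sets over 4 on at least 3 arrays were fitted with limma 3.58.1 in R 4.3.3 (lmFit, eBayes with an intensity trend, 6 residual degrees of freedom), with Benjamini-Hochberg adjustment over 21557 probe sets. The script was tested on simulated data. Levels of different probe sets were not compared with one another. Every member probe set is reported. From each gene list up to 4 genes per comparison are named, called ones first, by size of difference, and for each member the 2 genes nearest in pattern. Chat, Isl1 and the fibroblast markers were named after their values were seen. The members and lists were chosen with earlier results of these data known. Alternatives covered normalization, centring, filter, floor, variance prior, array weights, arrays fitted, a replicate block, 1 probe set per gene and leaving out each replicate, with the filter applied again to the remaining 8 arrays. Counts over gene lists were also taken with each replicate left out and the same probe sets tested, an alternative added after the data were seen.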

Additional observations from a re-analysis of the deposited data

How the results depend on the processing

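Of 1095 values of single member probe sets under the alternatives, 1060 kept their side of the threshold without a change of sign. Another 13 lost the call, 13 gained it and 9 changed sign without being called. A main difference of 0 has no sign to change, so its values are among the 1060. This holds for Pbx4 1449916_at in iCdx2 and FGF minus ES, which ran from -0.48 to 0.43 and was never called. Both Pbx3 falls in iCdx2 and FGF cultures against motor neuron cultures were called in every alternative that tested them. The sign changes were, for iCdx2 and FGF minus motor neuron, Meis1 1459423_at at -0.06 without iCdx2 and FGF replicate 1 and -0.05 without motor neuron replicate 2, and Pbx2 1449261_at at -0.05 without motor neuron replicate 1. For motor neuron minus ES, Pbx4 1449916_at was at -0.13 after quantile normalization. For iCdx2 and FGF minus ES, Pbx3 1421193_a_at was at -0.4 after quantile normalization, -0.05 without iCdx2 and FGF replicate 2 and -0.02 without ES replicate 2, and Pknox1 1437470_at at -0.28 after quantile normalization and -0.01 without ES replicate 1. Leaving out a replicate, these ranged from -0.06 to 0.33 for Meis1 1459423_at, -0.05 to 0.1 for Pbx2 1449261_at, -0.05 to 0.17 for Pbx3 1421193_a_at, -0.01 to 0.33 for Pknox1 1437470_at. The cause was not tested.

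For iCdx2 and FGF minus motor neuron, 1 member probe set, Meis2 1440091_at, was called higher with array weights and with only the 6 arrays compared, and 0 to 1 when leaving out a replicate, the 1 being without ES replicate 2. With 1 probe set per gene, which tests fewer features, 1 member was called lower, 1220 of all probe sets higher and 939 lower. Leaving out a replicate gave 1198 to 1955 of all called lower, the fewest without motor neuron replicate 1 (1198) or 2 (1202). For motor neuron minus ES, 0 members were called lower without a filter, with a filter at 6, with only the 6 arrays compared and with 1 probe set per gene, and 0 to 2 when leaving out a replicate: 0 without motor neuron replicate 1 or 3 or ES replicate 1 or 3, and 2 without ES replicate 2. With 1 probe set per gene 7 members were higher, and 2826 of all were higher and 3346 lower. For iCdx2 and FGF minus ES, 2 members were called lower with values under 4 raised to 4, and 1 to 3 when leaving out a replicate, the 3 being without ES replicate 2. With 1 probe set per gene 5 members were higher, and 2774 of all were higher and 2971 lower.

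With the replicate block, 0 member probe sets were called higher and 2 lower in iCdx2 and FGF cultures against motor neuron cultures, 13 higher and 1 lower in motor neuron cultures against ES cells, and 10 higher and 1 lower for iCdx2 and FGF minus ES, and no call changed. Over all probe sets the block gave 2311 higher and 1815 lower, beside 2342 and 1843 without it, in iCdx2 and FGF cultures against motor neuron cultures. Deviations of same-numbered arrays correlated at -0.028 to 0.106. Between iCdx2 and FGF and motor neuron arrays these were 0.035, 0.106 and 0.07, beside -0.14 to 0.041 for arrays of unlike number. The labels do not say whether same-numbered arrays share a culture or batch, and these values cannot settle it.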
